A study of Mus musculus with 27 samples.

Results

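Neutrophils sorted from mammary tumours of mice given cisplatin were compared with neutrophils from tumours of mice given only a control antibody. The samples of the comparison were taken by their titles. It holds 7 of the 27 samples of the study, 3 with cisplatin and 4 without, measured over 9996 listed genes. All mice carried the K14cre;Cdh1F/F;Trp53F/F alleles, in which Cre driven by the keratin 14 promoter deletes E-cadherin and p53 in epithelial cells and mammary tumours arise in the animal itself. The p53 deletion is thus directed to the epithelium, and the sorted neutrophils come from cells outside the reach of that promoter as it is usually described. The cisplatin mice also received the control antibody and were killed 1 day after the second of 2 cisplatin injections, while the mice without cisplatin were killed when the tumour measured 100 mm2. Drug and endpoint cannot be told apart in this comparison. The same study holds 8 neutrophil libraries in which the antibody was anti-CSF-1R, 4 with cisplatin (called the combination here) and 4 without, and 12 macrophage libraries, and these are set beside the cisplatin difference below. They also entered the restoring of the values, and the neutrophil ones share the fit behind the main p-values. The antibody blocks CSF-1R, the receptor that macrophages need for survival. The labels give neither age nor sex, and nothing in them says whether libraries of a group came from separate mice, so a p-value here sets a difference against library-to-library spread, whose source may be technical.

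Cisplatin is a platinum drug that crosslinks DNA. The lesions stall replication and activate p53, which switches on genes for cell cycle arrest and for apoptosis. Neutrophils are short-lived, non-dividing phagocytes that leave the bone marrow with their granule proteins largely made, so their transcripts mostly encode receptors, cytokines, chemokines and interferon-responsive genes. In bulk RNA of sorted cells, fewer cells of a type and less RNA per cell cannot be told apart.

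The values are the authors' normalised read counts, each a whole number of reads times what 1 read is worth in its library. Most values below 1000 had lost the decimal point, which was restored by requiring whole reads. Where more than 1 place gave whole reads, a count model of the gene over the study's groups gave each place a probability, and values with a probability under 0.95 were left out, 6.44% of those in the 7 libraries. The restored reads over the listed genes came to 998058 to 1688629 in the cisplatin libraries and 1085924 to 2110232 in the control libraries, and 1 read was worth 1.43 to 1.90 in the cisplatin libraries and 0.926 to 1.85 in the control libraries. Correlations across 4401 genes were 0.943 to 0.954 within the cisplatin group, 0.957 to 0.969 within the control group and 0.938 to 0.971 between the groups. Cisplatin replicate 2 stood apart, at 36.5 on the first principal component (33.3% of the variance), with the other 6 libraries between -13.2 and 10.8. Neutrophil markers were present in every library, with Csf3r, the G-CSF receptor, at 7134 to 9385 in cisplatin libraries and 5039 to 7895 in control libraries. The gene for the sorting antigen Ly6G was not analysed here.

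Of 9102 genes tested with limma, 2 (0.0220%) had an adjusted p under 0.05, and both were higher with cisplatin. Both calls were lost when only the 7 compared libraries entered the fit (limma adjusted p of 0.0782 for the Irgm2 log2 fold change and 0.0654 for the Sgms1 log2 fold change) and when decimal points were restored without the groups. They were Irgm2, an interferon-inducible GTPase of the immunity-related family, and Sgms1, a sphingomyelin synthase of the Golgi. At an unadjusted p under 0.05 there were 646 genes (7.10%), 350 higher (3.85%) and 296 lower (3.25%) with cisplatin, and the median log2 fold change of all genes tested was 0.03. In simulated libraries of the same sizes the test recovered 66 of 93 genes changed 4-fold and 18 of 99 changed 2-fold, and 11 of its 95 calls were false, so a change of 2-fold would mostly be missed in this comparison.

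Irgm2 (chr11:58199618-58222782, plus strand, GRCm38) had normalised read counts of 428, 262 and 255 in the cisplatin libraries, against 110, 62.1, 87.0 and 62.0 in the control libraries. All 3 cisplatin values lay above all 4 control values. The means were 315 ± 98.0 with cisplatin (SD, n = 3) and 80.2 ± 22.9 in controls (SD, n = 4), a log2 fold change of 1.96 with a standard error of 0.26 (limma, adjusted p = 0.00242). The call rests on where the decimal point of 3 control values stands. The 3 cisplatin values and control replicate 1 allowed only 1 place, but control replicates 2, 3 and 4 could also be read as 621, 870 and 620, which would put them above the cisplatin libraries. The model that uses the groups gave the lower places probabilities of 0.979 to 0.984. A model without the groups gave the higher place the greater probability in control replicates 2 (0.621) and 4 (0.624) and the lower place in control replicate 3 (0.619). With those 3 values left out, as the model without groups requires, the log2 fold change was 1.47 and the limma adjusted p was 0.722.

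Sgms1 (chr19:32122727-32389714, minus strand) had 528 and 278 in cisplatin replicates 2 and 3, against 63.7, 28.1, 49.96 and 44.4 in the control libraries. The value of cisplatin replicate 1 was left out, because it could be read as 53.1 or 531, and the model with the groups gave 531 a probability of only 0.510. The model without the groups gave 53.1 a probability of 0.980, and all 4 control values also had a second, 10-fold higher place. The higher reading would place it with the other cisplatin libraries and the lower one within the control range. The log2 fold change was 3.07 with a standard error of 0.39 (limma, adjusted p = 0.00242), and with cisplatin replicate 1 read as 53.1 it was 2.13 (limma adjusted p = 0.798). With the places restored without the groups the limma adjusted p was 0.722. Without cisplatin replicate 2 the log2 fold change was 2.61 (limma adjusted p = 0.273).

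**Figure D1:**
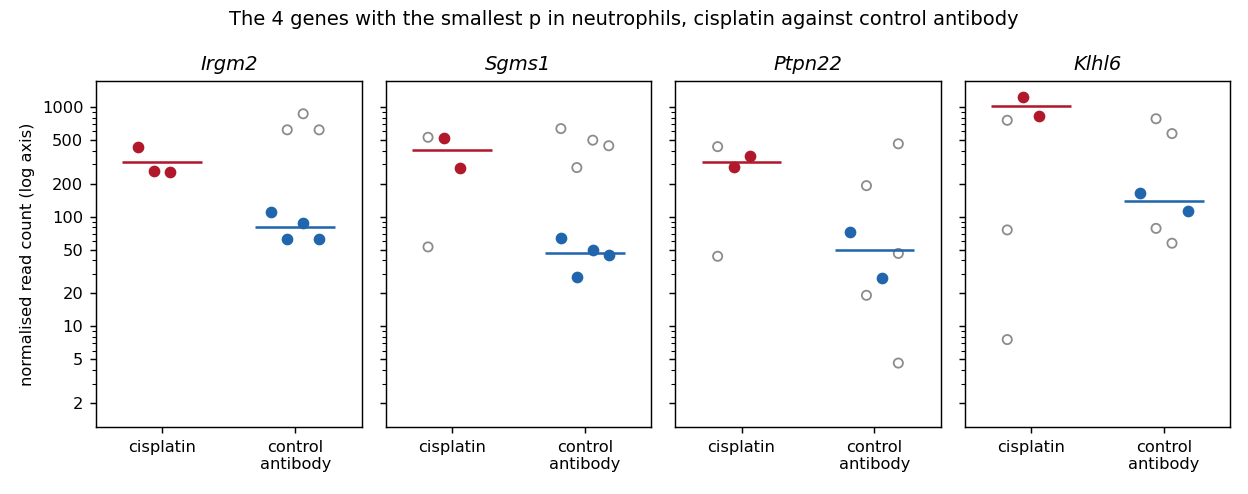
Normalised read count (log axis) of the 4 genes with the smallest p in each neutrophil library, cisplatin left and control antibody right, filled points for restored values, lines for their means and open circles for other places the decimal point could take. Only for Irgm2 are all 7 values restored, and there the open circles of 3 control libraries lie between 620 and 870, above the cisplatin points.

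The next genes by p did not pass. Ptpn22, a tyrosine phosphatase that restrains signalling in lymphocytes and myeloid cells, had 283 and 355 in cisplatin replicates 2 and 3, against 72.6 and 27.8 in control replicates 1 and 3 (log2 fold change 2.79, limma adjusted p = 0.0721). Klhl6, known as an adaptor of a ubiquitin ligase in B cells, had 1243 and 823 in cisplatin replicates 2 and 3, against 166 and 112 in control replicates 1 and 4 (log2 fold change 2.88, limma adjusted p = 0.131). Each had 3 of its 7 values left out, so neither rests on more than 2 libraries a group, and with those values at the place nearest to the other group the log2 fold changes were 0.49 and 0.50.

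The remaining 16 of the 20 genes with the smallest p all had a limma adjusted p of 0.461. Among them, Slc22a15 and Irf2 had all 7 values restored, and of the 14 values all but 1 allowed a single place. Slc22a15, an organic cation and zwitterion transporter, had 222, 293 and 392 with cisplatin, against 117, 140, 128 and 108 in controls. Irf2, a transcription factor that binds interferon-stimulated response elements, had 210, 364 and 267 with cisplatin, against 107, 93.1, 139 and 160 in controls. In both genes every cisplatin library lay above every control library, and the log2 fold changes were 1.25 ± 0.31 and 1.16 ± 0.29 (standard error). Cacfd1, a membrane protein, had 100.5, 191 and 209.6 with cisplatin, against 71.1, 57.6, 46.3 and 75.9 in controls. Tnfrsf9, the costimulatory receptor 4-1BB, had 20.9, 25.4 and 15.7 with cisplatin, against 5.92, 5.91, 7.40 and 10.2 in controls. These 2 genes also separated the groups without overlap, but most of their decimal points were placed by the model. A single place was possible for 3 of 7 Cacfd1 values and 0 of 7 Tnfrsf9 values. The model without the groups also restored all 7 values of each. Of 6062 tested genes with all 7 values restored, 295 (4.87%) had every cisplatin library above every control library and 209 (3.45%) had every cisplatin library below, so such separation is common in these libraries. Among the 20, Phb, Cav2, Camp, Dolk and Smyd3 were lower with cisplatin. Cav2 had cisplatin replicates 1 and 3 left out. With uncertain values at the place nearest to the other group, its log2 fold change went from -3.49 to -1.40. That of Camp went from -4.16 to -0.86, that of Smyd3 from -2.29 to -1.31 and that of Phb from -1.68 to -1.32. Dolk, dolichol kinase of the protein glycosylation pathway, had 1.90, 1.69 and 1 with cisplatin, against 11.8, 7.39, 11.1 and 5.55 in controls, which is 1 read or fewer in the cisplatin libraries.

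The members of 33 gene lists were then described by their counts and medians. In the plot of fold changes by list the interferon-stimulated, chemokine, neutrophil identity and hypoxia lists had medians above that of all genes, and the MHC class II, ribosomal and oxidative phosphorylation lists had medians below it. Apart from Irgm2 no list member passed limma at an adjusted p of 0.05, so the counts below are at an unadjusted p under 0.05, to be read against 3.85% of all genes higher and 3.25% lower.

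**Figure D2:**
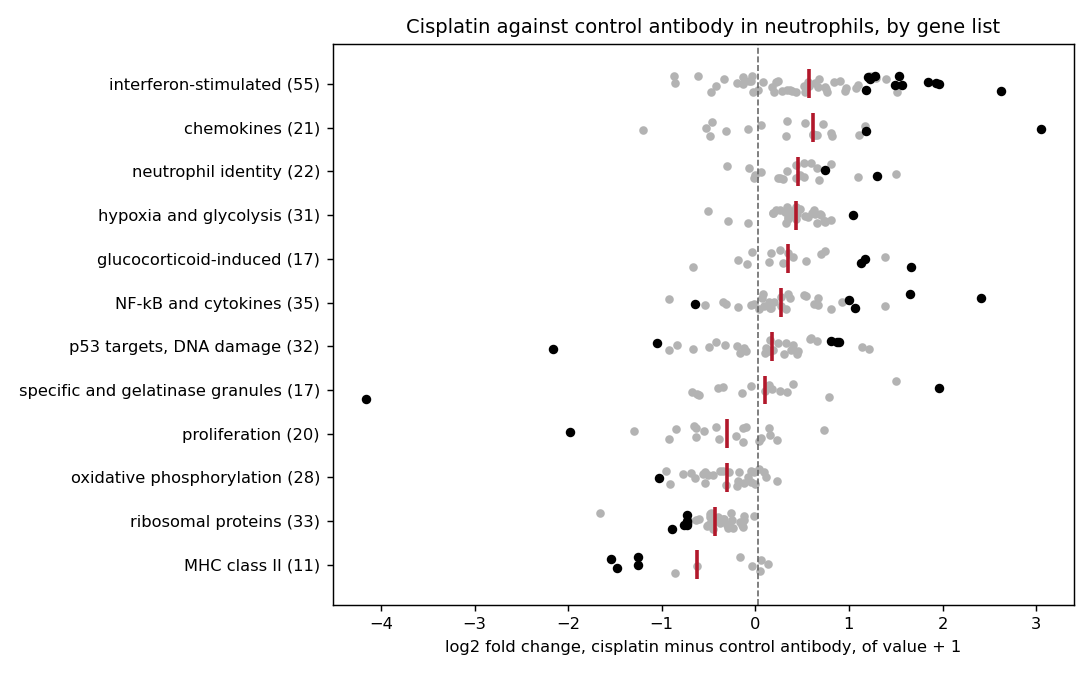
Log2 fold change of value + 1, cisplatin minus control antibody, of the tested members of 12 gene lists (number tested in brackets), black where the unadjusted p was under 0.05, with the list median in red and the median of all genes (0.03) dashed. The interferon-stimulated list has its median at 0.57 and the MHC class II list at -0.62.

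Interferon-stimulated genes encode the antiviral and GTPase effectors that type I and type II interferons induce. Of 55 tested members, 42 had a log2 fold change above 0 and the median was 0.57. At an unadjusted p under 0.05, 11 were higher and 0 lower. These 11 were Irgm2, Rsad2, Slfn1, Ddx58, Oasl2, Ifit1, Oas3, Mx1, Oas2, Slfn5 and Trim30a. Ifit1 had only 3 of its 7 values restored, with control replicates 2, 3 and 4 among those left out, and Mx1 had 5. With uncertain values at the place nearest to the other group, Ifit1 and Mx1 were no longer at that level. Rsad2, which encodes the antiviral enzyme viperin, had 2373, 1838 and 2192 in the cisplatin libraries, against 717, 115, 104 and 1614 in the control libraries. All 7 values allowed a single place, and the groups did not overlap, although control replicate 4 came within 224 of the lowest cisplatin library. The log2 fold change was 2.62 ± 0.74 (standard error; limma, adjusted p = 0.619).

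Other members showed the same unequal controls. Oasl2, an oligoadenylate synthetase-like antiviral protein, had 1951, 1689 and 1985 with cisplatin, against 778, 436, 490 and 2111 in controls. Oas3, which makes the oligoadenylates that activate RNase L, had 1291, 984 and 965 with cisplatin, against 416, 188, 224 and 1204 in controls. Trim30a, a ubiquitin ligase family member that dampens Toll-like receptor signalling, had 1003, 708 and 904 with cisplatin, against 434, 278, 178 and 958 in controls. Control replicate 4 was the highest of the 7 libraries for Oasl2 and lay among the cisplatin libraries for Oas3 and Trim30a, and control replicates 2 and 3 were lowest in all 3 genes. Slfn5, of the Schlafen family, had 1687, 687 and 1186 with cisplatin, against 609, 166, 135 and 1459 in controls, with control replicates 2 and 3 again lowest.

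Well-known members of the list did not all share this pattern. Isg15, a ubiquitin-like modifier, had 614, 437 and 482 with cisplatin, against 295 and 832 in control replicates 1 and 4 (log2 fold change 0.03). Cxcl10, a T cell attracting chemokine, had 328, 209.9 and 258 with cisplatin, against 105 and 401 in control replicates 1 and 4 (log2 fold change 0.34). Ifit3, an antiviral protein, had 188 and 160 in cisplatin replicates 1 and 3, against 56.3 and 209 in control replicates 1 and 4 (log2 fold change 0.67). Irf7, the master regulator of type I interferon, had 197, 124 and 158 with cisplatin, against 97.7 and 299.9 in control replicates 1 and 4 (log2 fold change -0.13). In all 4 the groups overlapped, and control replicates 2 and 3, the libraries lowest in this list, were left out because their decimal points could not be placed. Irgm1 and Zbp1, another GTPase and a nucleic acid sensor, were restored in control replicate 4 alone among the controls and had log2 fold changes of -0.86 and -0.87. Usp18, which removes Isg15 from proteins, was restored in 1 of the 7 libraries and not tested. The median of the list therefore depends on which control values could be placed.

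Averaged over the list, the level of a library (the mean log2 deviation of the members from their mean over all neutrophil libraries) was 0.07, -0.49 and -0.36 with cisplatin, against -1.11, -1.73, -1.77 and 0.05 in controls. Values left out were skipped, so the levels of different libraries do not cover exactly the same members. Control replicate 4 thus stood within the cisplatin range, and the other 3 control libraries stood below all cisplatin libraries. Without control replicate 4 the median of the list was 1.28 and 25 members were higher at an unadjusted p under 0.05. Without cisplatin replicate 1 or control replicate 3 the count was 5, without control replicate 2 it was 6 and without cisplatin replicate 3 it was 7. With uncertain values at the place nearest to the other group the median of 60 testable members was 0.26 and the count was 10.

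The interferon-stimulated response element is the DNA site through which interferon-activated factors act. Its core was searched as GAAA, any 2 bases and GAAA in a row, on both strands, with overlapping matches allowed. The search covered the 250 bases before any RefSeq start of a gene (GRCm38.p6). The core was present in 936 of 27025 genes (3.46%), in 24 of 46 list members with an entry and in 6 of the 9 with an entry among the 11 above. A match is a description of these letters and not evidence of binding. For Irgm2 and Slfn5 the start used lies inside the gene's annotated interval. The windows of the 5 members whose values are given in full above and that hold the core are shown 5′ to 3′ on the gene's strand, with the core, or its reverse complement, in capitals.
Irgm2 (chr11:58214868-58214967, plus strand): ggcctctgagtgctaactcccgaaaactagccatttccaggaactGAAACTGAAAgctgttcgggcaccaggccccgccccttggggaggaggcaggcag
Rsad2 (chr12:26456518-26456617, minus strand): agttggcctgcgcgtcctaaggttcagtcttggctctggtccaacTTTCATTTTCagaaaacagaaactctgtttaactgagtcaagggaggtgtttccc
Oas3 (chr5:120777680-120777779, minus strand): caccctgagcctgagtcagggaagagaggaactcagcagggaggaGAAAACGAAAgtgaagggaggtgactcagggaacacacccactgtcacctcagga
Trim30a (chr7:104465194-104465293, minus strand): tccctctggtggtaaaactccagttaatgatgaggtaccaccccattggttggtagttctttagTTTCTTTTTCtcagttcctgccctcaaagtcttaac
Slfn5 (chr11:82951902-82952001, plus strand): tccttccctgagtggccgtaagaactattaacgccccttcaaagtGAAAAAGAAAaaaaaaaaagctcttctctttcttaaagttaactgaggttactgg

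**Figure D3:**
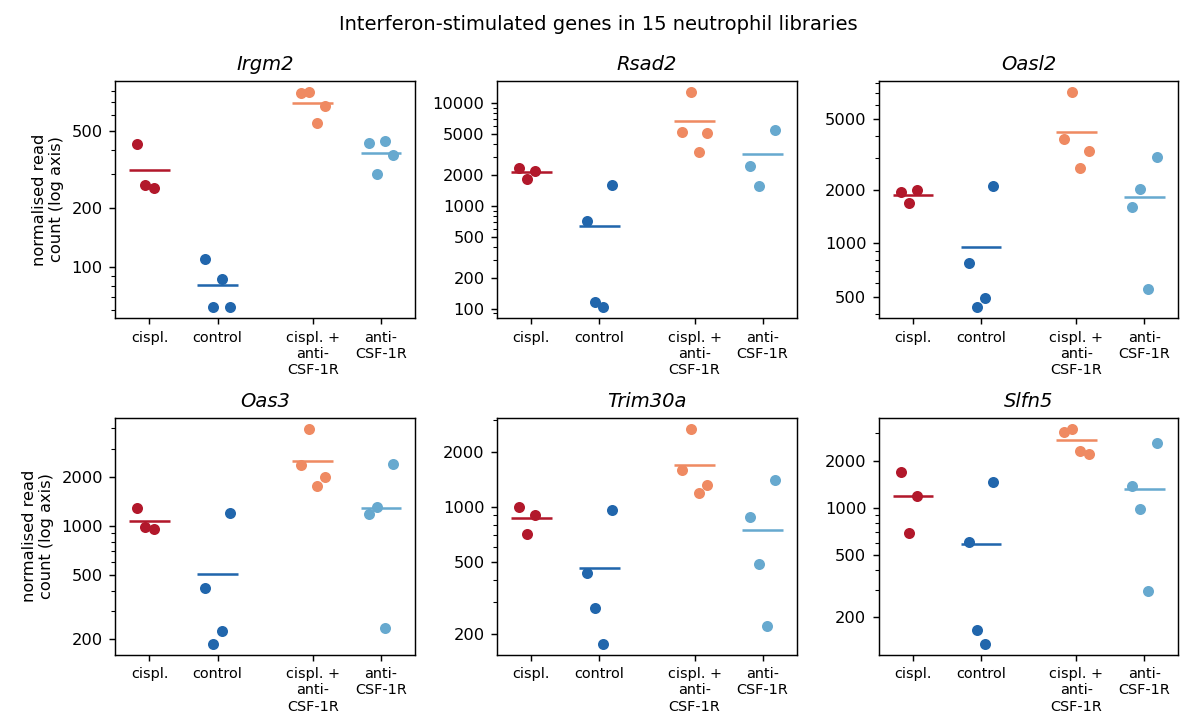
Normalised read count (log axis) of 6 interferon-stimulated genes in 15 neutrophil libraries, with lines for group means, in the order cisplatin, control antibody, cisplatin with anti-CSF-1R and anti-CSF-1R alone. For Rsad2 the 3 cisplatin libraries lie at 1838 to 2373 and the controls spread from 104 to 1614.

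A second comparison of cisplatin with no cisplatin was available in neutrophils of mice that received anti-CSF-1R, and it shares no library with the first. None of 9115 genes passed limma at an adjusted p of 0.05 (0.00%), 786 (8.62%) had an unadjusted p under 0.05 with 483 (5.30%) higher and 303 (3.32%) lower with the combination. Of all genes tested here, 51.6% had a log2 fold change above 0. Of 60 tested interferon-stimulated genes, 59 had a log2 fold change above 0, 37 were higher at an unadjusted p under 0.05 and 0 were lower, with a median of 1.11. These members come from the same 8 libraries and are not independent samples. The level of the list (55 members) was 0.35 to 1.41 in the combination, against -1.13 to 0.62 with anti-CSF-1R alone. The groups overlapped, with anti-CSF-1R replicate 4 (0.62) above combination replicate 3 (0.35). Irgm2 had 781, 792, 549 and 668 in the combination, against 430, 299, 440 and 375 with anti-CSF-1R alone, without overlap (log2 fold change 0.85 ± 0.24, standard error; limma, adjusted p = 0.367). Rsad2 had 5250, 13001, 3386 and 5200 in the combination, against 2434, 1574 and 5549 in the 3 restored libraries of anti-CSF-1R alone, with overlap. Ptpn22 had 45.7, 91.0, 88.2 and 87.9 in the combination, against 50.05, 27.4, 27.8 and 35.4 with anti-CSF-1R alone (log2 fold change 1.12). Limma-voom on the restored reads also called 0 genes here and in both interactions below. Whether the cisplatin difference itself depended on anti-CSF-1R was tested in the same fit, and 0 of 9092 genes passed limma at an adjusted p of 0.05 (0.00%), with 421 (4.63%) at an unadjusted p under 0.05, 238 (2.62%) of them more positive and 183 (2.01%) more negative under anti-CSF-1R. Among the genes named here the smallest of these p belonged to Tnfrsf9, at 14.5, 13.6, 6.53 and 14.4 in the combination, against 23.2, 35.2, 29.0 and 28.8 with anti-CSF-1R alone.

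Targets of p53 and other DNA damage genes were the list closest to the drug's action. Of 32 tested members, 20 had a log2 fold change above 0, the median was 0.17, and 3 were higher and 2 lower at an unadjusted p under 0.05. Without cisplatin replicate 2 the median was 0.07, 18 were above 0, and 1 was higher and 2 lower. Trp53inp1, a p53-induced stress protein, had 343, 615 and 355 with cisplatin, against 221, 155, 246 and 310 in controls. All 7 values allowed a single place and the groups did not overlap, with a log2 fold change of 0.90 ± 0.27 (standard error; limma, adjusted p = 0.619). The other 2 higher members were Btg2, an antiproliferative gene, and Ercc5, an endonuclease of nucleotide excision repair. Btg2 had 1536, 3181 and 3109 with cisplatin, against 1589, 1444, 1242 and 1419 in controls, with cisplatin replicate 1 inside the control range.

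Classical targets varied. Ccng1, cyclin G1, had 525, 567 and 732 with cisplatin, against 376, 435, 461 and 505 in controls, without overlap (log2 fold change 0.45 ± 0.24, standard error; limma, adjusted p = 0.705). Cdkn1a, the cyclin-dependent kinase inhibitor p21, had 2508, 7491 and 4746 with cisplatin, against 2536, 4510, 3456 and 2887 in controls, with cisplatin replicate 1 lowest of all. Mdm2, the ubiquitin ligase that degrades p53, had 1050, 1442 and 1127 with cisplatin, against 1041, 1084, 1203 and 1011 in controls, with overlap. The 2 lower members were Bax, a pro-apoptotic pore protein, and Perp, a junction protein that p53 also induces. Bax had 15.2, 35.5 and 9.98 with cisplatin, against 47.4, 28.1, 31.5 and 48.1 in controls, with cisplatin replicate 2 inside the control range.

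Macrophages sorted in the same study gave the cisplatin difference of these genes in another cell type. Ccng1 had 733, 646, 678 and 693 in cisplatin macrophages, against 257, 222, 269 and 271 in control macrophages. The neutrophil difference was smaller than the macrophage one by 0.99 ± 0.27 on the log2 scale (standard error; limma interaction, adjusted p = 0.517). Zmat3, an RNA-binding p53 target, had 64.5, 25.4 and 44.2 in cisplatin neutrophils, against 51.7, 24.1 and 25.9 in the 3 restored control libraries. In macrophages Zmat3 had 140, 129 and 186 with cisplatin, against 36.2, 50.3 and 25.5 in controls, and the interaction was -1.65 ± 0.62 (standard error; limma, adjusted p = 0.767). Phlda3, a p53-induced inhibitor of Akt, stayed at or below 6.77 in all 7 neutrophil libraries and was not tested. Across 8422 genes 0 passed limma at an adjusted p of 0.05 for a difference between the cell types (0.00%), 500 (5.94%) had an unadjusted p under 0.05 (2.97% higher and 2.97% lower in neutrophils), and of 26 testable members of the p53 list 0 were higher and 3 lower in neutrophils at that level.

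**Figure D4:**
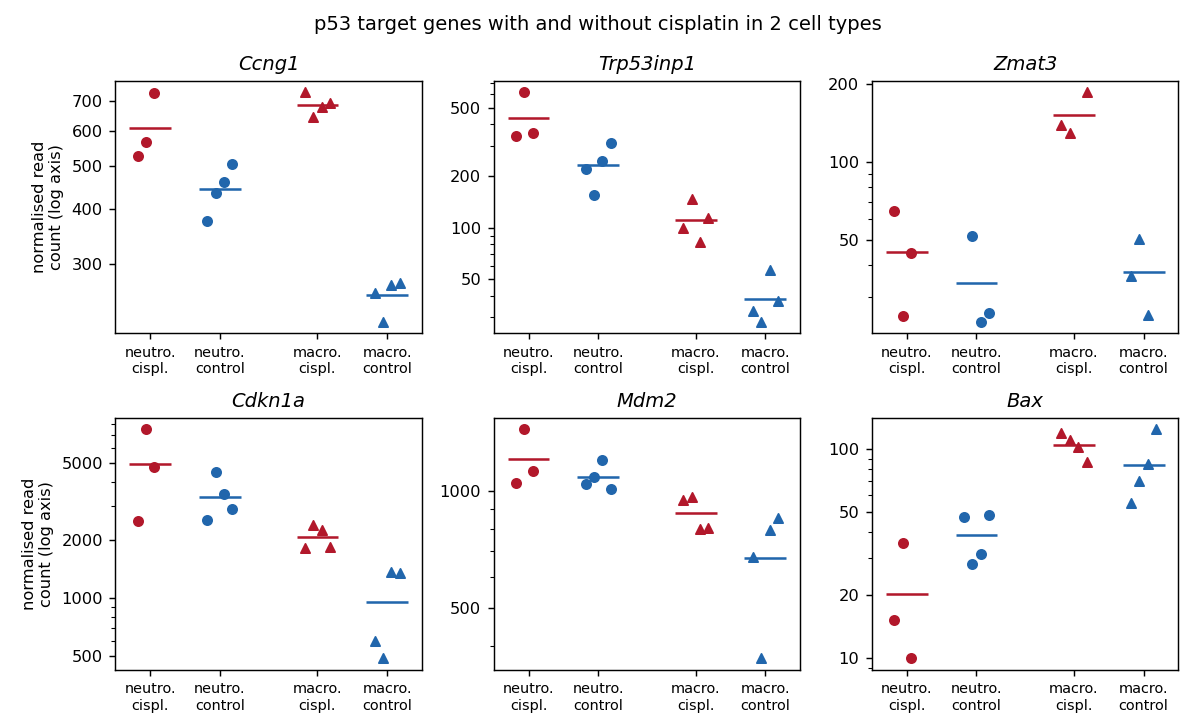
Normalised read count (log axis) of 6 p53 target genes in cisplatin and control neutrophils (circles) and cisplatin and control macrophages (triangles), with lines for group means. For Ccng1 the cisplatin and control neutrophils lie at 525 to 732 and 376 to 505, and the cisplatin and control macrophages at 646 to 733 and 222 to 271.

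The level of the neutrophil identity list was -0.57, 0.99 and 0.04 with cisplatin, against -0.58, -0.28, -0.00 and -0.35 in controls, so cisplatin replicate 2 stood out. Of 22 tested identity genes, 18 had a log2 fold change above 0 with a median of 0.46, with 2 members higher and 0 lower at an unadjusted p under 0.05. Itgam, the integrin CD11b, had 4076, 9610 and 10309 with cisplatin, against 4308, 4676, 4733 and 3974 in controls. Cisplatin replicate 1 lay among the controls and replicates 2 and 3 lay above them. Cxcr2, the receptor for neutrophil-attracting chemokines, had 3996, 7582 and 7274 with cisplatin, against 3069, 3724, 3495 and 5420 in controls (log2 fold change 0.66, limma adjusted p = 0.705). S100a8, a subunit of calprotectin, had 4724, 20258 and 4747 with cisplatin, against 4006, 4881, 9738 and 4884 in controls, with cisplatin replicate 2 far above the rest. S100a9, the other subunit, had 10398, 40212 and 8414 with cisplatin, against 9302, 11064, 16271 and 9712 in controls, with cisplatin replicate 2 highest and cisplatin replicate 3 lowest. Without that replicate the median of the identity list was -0.01 and 9 of 22 members were above 0.

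Granule protein genes, which are transcribed mainly in bone marrow precursors, gave no common direction. Of 17 specific and gelatinase granule genes, 9 had a log2 fold change above 0, the median was 0.10, and 1 was higher and 1 lower at an unadjusted p under 0.05. Mmp8, neutrophil collagenase, had 2138 and 384 in cisplatin replicates 2 and 3, against 107, 176, 581 and 265 in controls. Ltf, lactoferrin, had 47.4, 89.7 and 34.2 with cisplatin, against 35.5, 34.0, 449.6 and 94.4 in controls, with control replicate 3 highest. Ngp, neutrophilic granule protein, had 281 in the single restored cisplatin library, against 129, 1876 and 340 in the 3 restored control libraries. Camp, the cathelicidin gene, was listed at 1 in both restored cisplatin libraries, against 113 and 10.2 in both restored control libraries. Without cisplatin replicate 2 the median of this list was -0.25, with 0 members higher and 3 lower.

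Cytokine and feedback genes followed the same libraries. Of 21 chemokine genes, 15 had a log2 fold change above 0 with a median of 0.61, and Cxcl3 and Ccl2 had an unadjusted p under 0.05 (median 0.21 without cisplatin replicate 2). Cxcl3, a ligand of CXCR2, had 7992 and 1353 in cisplatin replicates 2 and 3, against 578, 712, 455 and 131 in controls. Ccl2, which attracts monocytes, had 68.2, 171 and 218 with cisplatin, against 68.1, 60.6, 70.3 and 43.5 in controls. Of 35 NF-kB and inflammatory cytokine genes, 27 were above 0 with a median of 0.27, and Il12a, Osm, Nfkbiz and Tnfaip3 were higher and Nfkb1 lower at an unadjusted p under 0.05. Il12a had only 3 of its 7 values restored, with cisplatin replicates 1 and 3 and control replicates 1 and 2 left out. With uncertain values at the place nearest to the other group, Il12a and Osm were no longer at that level. Tnfaip3, the feedback inhibitor A20, had 7005, 14922 and 8716 with cisplatin, against 6845, 4718, 3277 and 5269 in controls. Nfkbiz, a nuclear IkB protein, had 3955, 9224 and 6918 with cisplatin, against 3917, 3239, 2257 and 2870 in controls. In both genes the lowest cisplatin library lay just above the highest control library. Il1b, the inflammatory cytokine interleukin 1 beta, had 12376, 45289 and 30048 with cisplatin, against 15053, 17128, 11527 and 15255 in controls, with overlap. Tnf, tumour necrosis factor, had 1361, 2119 and 1090 with cisplatin, against 1422, 1113, 979 and 1844 in controls, also with overlap. Without cisplatin replicate 2 the counts at an unadjusted p under 0.05 were 0 in both lists.

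Glucocorticoid-induced genes, which stress hormones switch on, showed the same split between cisplatin libraries. Of 17 members, 13 had a log2 fold change above 0 with a median of 0.35, and Tsc22d3, Fkbp5 and Dusp1 were higher at an unadjusted p under 0.05. Fkbp5, a chaperone of the glucocorticoid receptor, had 15.2, 251 and 161 with cisplatin, against 26.7, 26.6, 25.9 and 26.8 in controls. Cisplatin replicate 1 was the lowest of the 7 libraries and replicates 2 and 3 the highest. Tsc22d3, the leucine zipper protein GILZ, had 87.2, 437 and 292 with cisplatin, against 139, 79.8, 98.1 and 86.1 in controls. Dusp1, a phosphatase of MAP kinases, had 2586, 11279 and 8284 with cisplatin, against 2607, 3460, 2729 and 2689 in controls. Without cisplatin replicate 1, Fkbp5 was among 6 genes that passed limma at an adjusted p of 0.05, and without cisplatin replicate 2 the list held 0 members higher at an unadjusted p under 0.05.

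Hypoxia and glycolysis genes had 28 of 31 members above 0 with a median of 0.43, but 1 at an unadjusted p under 0.05. That gene was Egln1, an oxygen-sensing prolyl hydroxylase, with 243 and 212 in cisplatin replicates 1 and 2, against 84.4, 82.8, 194 and 106 in controls. The level of the list was 0.11, 1.27 and -0.12 with cisplatin, against -0.17, 0.10, 0.37 and -0.26 in controls, so cisplatin replicate 2 alone stood above the controls. Without it the median was -0.03 and 15 of 31 members were above 0.

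**Figure D5:**
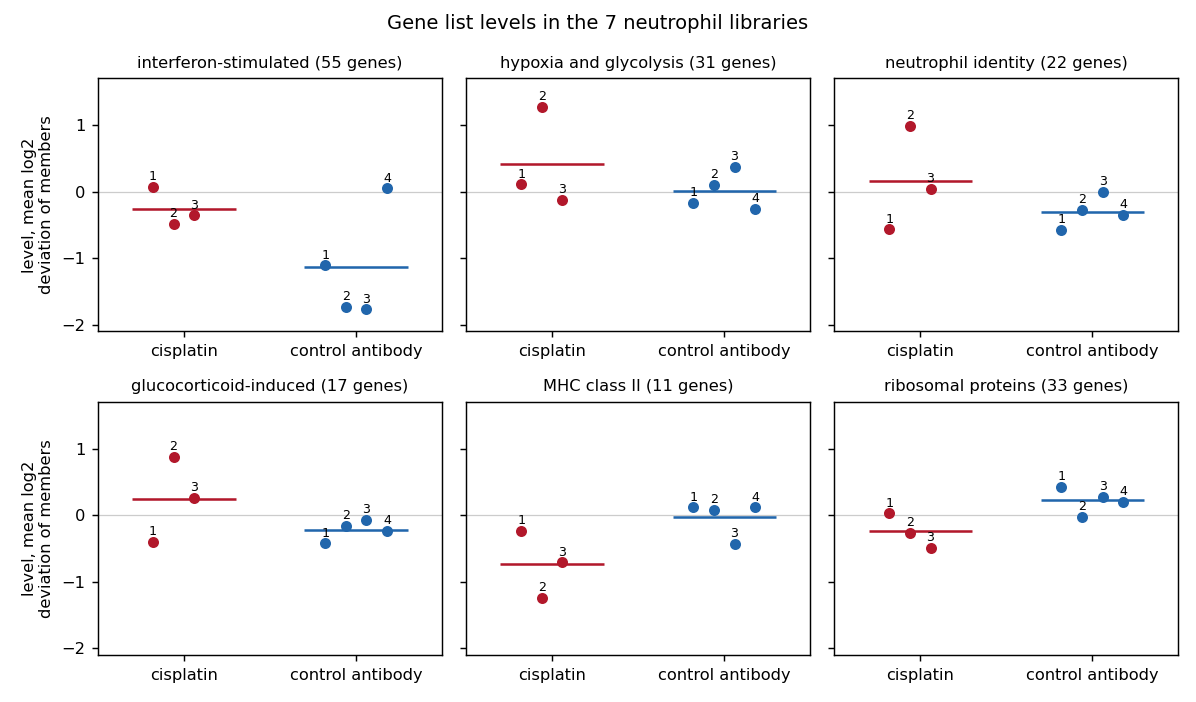
Level of 6 gene lists (mean log2 deviation of the tested members from their mean over all neutrophil libraries, values left out skipped) in each cisplatin and control library, numbered by replicate, with lines for group means. Cisplatin replicate 2 reaches 1.27 in the hypoxia and glycolysis list and 0.99 in the neutrophil identity list, above the other libraries.

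MHC class II genes, which present peptides to CD4 T cells, were the list with the lowest median among those with at least 6 tested members, at -0.62. Of 11 members 3 had a log2 fold change above 0, and 0 were higher and 4 lower at an unadjusted p under 0.05. H2-Ab1 had 804, 161 and 595 with cisplatin, against 1086, 1020, 901 and 1060 in controls, without overlap. H2-Aa had 1864, 433 and 848 with cisplatin, against 2527, 1973, 1826 and 2168 in controls, with cisplatin replicate 1 inside the control range. H2-Eb1 had 49.3, 57.6 and 52.8 with cisplatin, against 66.6, 35.2 and 57.4 in the 3 restored control libraries, with overlap. Cd74, the invariant chain, had 3702 and 2585 in cisplatin replicates 1 and 3, against 5483, 4773, 3956 and 4936 in controls, without overlap (log2 fold change -0.62, limma adjusted p = 0.822). H2-DMb1, a chaperone of peptide loading, had 20.3 and 18.5 in cisplatin replicates 2 and 3, against 53.3, 63.6, 42.6 and 66.6 in controls. Without any 1 of cisplatin replicates 2 and 3 and the 4 control libraries the count of 4 was 1 or 2, and with values of a single possible place it was 0 with a median of -0.16. Professional antigen-presenting cells make these genes at high levels. The dendritic cell marker genes in the table summed to 121, 40.6 and 108 with cisplatin, against 120, 143, 104 and 129 in controls, and the macrophage markers to 3719, 2861 and 4898 with cisplatin, against 5443, 3515, 3227 and 4734 in controls. Their part in the MHC class II values was not tested.

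Ribosomal protein genes had 0 of 33 members above 0, a median of -0.43 and 5 members lower at an unadjusted p under 0.05. Rpl13, of the large subunit, had 184, 163 and 125 with cisplatin, against 324, 225, 311 and 217 in controls, without overlap. The level of the list was 0.03, -0.26 and -0.49 with cisplatin, against 0.43, -0.02, 0.28 and 0.20 in controls, with cisplatin replicate 1 above control replicate 2. The 33 members come from the same 7 libraries and are not independent samples. Oxidative phosphorylation genes had 5 of 28 members above 0 and a median of -0.30, with Cox5a, a cytochrome c oxidase subunit, at 43.6, 32.2 and 35.7 with cisplatin, against 51.8, 84.3, 102 and 76.8 in controls. Set against the macrophage difference, 4 of 33 ribosomal members were lower in neutrophils at an unadjusted p under 0.05 with a median of -0.41, and none passed limma after adjustment.

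Cell cycle genes gave few differences. Of 20 tested members 6 had a log2 fold change above 0 with a median of -0.30 (-0.14 without cisplatin replicate 2), and Ccnb2, cyclin B2, was lower at an unadjusted p under 0.05, with 3.79, 1 and 2.85 with cisplatin, against 8.89, 11.8, 12.95 and 15.7 in controls. Mki67, the proliferation antigen, had 756, 156 and 327 with cisplatin, against 493, 460, 252 and 743 in controls, with overlap.

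Among 29 genes of the BCL2 and caspase families, 19 had a log2 fold change above 0, the median was 0.17, and 2 were higher and 1 lower at an unadjusted p under 0.05. The lower one was Bax, given above. Without cisplatin replicate 2 the median was -0.0004, 14 of 29 were above 0, and 1 was higher and 1 lower. Casp9, the initiator caspase of the mitochondrial pathway, had 22.7, 47.4 and 32.8 with cisplatin, against 8.89, 7.40 and 8.33 in the 3 restored control libraries. These restored values did not overlap, with a log2 fold change of 1.88 ± 0.57 (standard error; limma, adjusted p = 0.619). Control replicate 2 was left out because it could be read as 2.96, 29.6 or 296. At 29.6 it would lie within the cisplatin range, and only 2 of the 7 Casp9 values allowed a single place. Lists of effector functions held few members at an unadjusted p under 0.05. There was 1 higher among 16 eicosanoid genes (median 0.06), 1 higher among 29 pattern recognition and Fc receptor genes (median 0.18), 3 higher among 23 genes of tumour-promoting and suppressive neutrophils (median 0.45), and 1 higher and 1 lower among 24 NADPH oxidase and antioxidant genes (median -0.04, 11 above 0). None of these 4 lists had a higher member at that level without cisplatin replicate 2. Alox5, the lipoxygenase that starts leukotriene synthesis, had 227, 452 and 344 with cisplatin, against 120, 177, 187 and 217 in controls. Ncf1, a cytosolic subunit of the phagocyte NADPH oxidase, had 1062, 1471 and 1224 with cisplatin, against 567, 464, 812 and 978 in controls. The lower gene of the oxidase and antioxidant list was Prdx1, a peroxiredoxin, with 99.9 and 97.0 in cisplatin replicates 2 and 3, against 178, 157, 196 and 229 in controls. Cd84, a SLAM family receptor, had 889, 1188 and 1017 with cisplatin, against 456, 702, 603 and 704 in controls. Tlr13, an endosomal sensor of bacterial ribosomal RNA, had 1012, 2761 and 1794 with cisplatin, against 1000, 918, 964 and 1006 in controls. Alox5, Ncf1, Cd84 and Tlr13 separated the groups without overlap, and none passed limma after adjustment (adjusted p between 0.631 and 0.661).

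Markers of other cells that the sort could hold gave few members at an unadjusted p under 0.05. Of 20 tested macrophage markers 2, Lyve1 and Folr2, were higher at an unadjusted p under 0.05 and 0 lower, with a median of 0.08, and without cisplatin replicate 2 there was 1 higher and the median was 0.36. Of 13 fibroblast and endothelial markers 0 had an unadjusted p under 0.05 (2 higher and 1 lower without cisplatin replicate 2), and their summed level was 2309, 2148 and 7548 with cisplatin, against 5156, 4748, 1811 and 1673 in controls. The 6 epithelial markers in the table summed to 588, 3355 and 707 with cisplatin, against 524, 520, 2836 and 1135 in controls, and that list includes Lcn2, which neutrophils also express. The T and NK cell markers in the table summed to at most 88.9 in any of the 7 libraries. Lower at an unadjusted p under 0.05 were Epcam among 5 tested epithelial markers, Cd4 among 4 tested T and NK cell markers and Tubb1 among 4 tested erythroid and platelet markers. Cd4 had 11.4, 1 and 7.13 with cisplatin, against 20.7, 16.3, 22.2 and 21.3 in controls, without overlap. The part of these cells in the other results was not tested.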

How the data were processed

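The deposited table holds 9996 genes in 27 libraries as a signal, the authors' read counts over a library size factor. Per the labels' protocols, 10 ng of RNA entered each library. The submitters' processing notes list the build mm10 and the tools DESeq2, R 3.3.1, Partek 6.6, TopHat2 2.0.11 and CASAVA 1.8, without assigning them to steps. The lowest listed value is 1. Of 269892 values, 91.1% had a form that allows a lost decimal point. Candidate places had to give whole reads, and a negative binomial model that uses the groups chose among them, which can favour differences between groups. In simulated libraries 0.0725% of the values kept in the 7 libraries were wrong, against 65% as printed. Those libraries were drawn from the same kind of count model that the restoring assumes. For the real values kept in the 7 libraries the model itself expected 0.173% to be wrong. Genes with at least 10 in at least 2 neutrophil libraries were tested with limma 3.58.1 in R 4.3.3 (trend, two-sided) on log2(value + 1), which understates changes of low genes. The 4 neutrophil groups shared 1 fit, differences between cell types used all groups, and p-values were adjusted by Benjamini-Hochberg. Fewer than 10 genes passed, so the 20 with the smallest p were named, with the 4 leading members of each list; other named genes, and the examples described, were chosen after their values were seen. The comparison and the 33 lists were chosen with earlier results of these data known. Replicate numbers follow sample order and pair nothing. Gene positions came from GENCODE vM21 (GRCm38) and promoters from RefSeq. Restoring and summaries ran in Python 3.11.15 with pandas 2.3.3, scipy 1.17.1 and numpy 2.4.6, and plots in matplotlib 3.10.9. Results for 2 list members are not reported here.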

Additional observations from a re-analysis of the deposited data

Results flagged for a closer look

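In 79 genes with 4 restored control values each, the control libraries were searched for a value far from the others, which chance flags in about 1 of 20 groups. Dusp1 in control replicate 2 was at 3460, against 2607 to 2729 in the other 3 control libraries, and all lay below cisplatin replicates 2 and 3. Hspd1, the mitochondrial chaperonin, was at 209 in control replicate 1, against 147 to 155 in the other 3 control libraries.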

How the results depend on the processing

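No paired analysis was possible because the labels number no replicates. The 2 genes called with cisplatin became 0 with only the compared groups in the fit (limma adjusted p = 0.0782 for the Irgm2 log2 fold change and 0.0654 for the Sgms1 log2 fold change), with places restored without the groups and with values of 1 possible place only, 4 with array weights (Klhl6 and Ptpn22 added) and with the most probable place for every value (Klhl6 and Igtp added), 1 (Irgm2) without cisplatin replicate 2 and combination replicate 2 together and 1 (Irgm2) with uncertain values at the place nearest to the other group. Leaving out 1 library gave 1 to 6, with 6 without cisplatin replicate 1, 5 without control replicate 4 and 1 without cisplatin replicate 2, and Irgm2 passed each time (limma adjusted p at most 0.0175). These fits kept the places as restored from all libraries, and the nearest place moved only values that had been left out. Irgm2 had none left out, so neither setting tested its decimal points. A pseudocount of 8 gave 3 and limma-voom on restored reads 2. For the combination and for the interaction with anti-CSF-1R leaving out 1 library gave 0 to 1. For the interaction with cell type the count of 0 became 1 with a pseudocount of 8 (Etv1), a minimum of 50 (Mmp9), array weights (Mmp9), values of 1 possible place (Gsr) and a threshold of 0.10, 4 with quantile normalisation (Mmp9, Alox5, Ccng1 and Etv1) and 0 to 3 without 1 library. The 11 interferon-stimulated members became 6 with quantile normalisation and 5 to 25 without 1 library. The 4 lower MHC class II members became 2 with a minimum of 50, 2 with the most probable place for every value, 0 with values of 1 possible place, 1 without cisplatin replicate 2 and combination replicate 2 together and 1 to 4 without 1 library; their median of -0.62 became -0.16 with a minimum of 50, -0.35 with the most probable place, -0.16 with 1 possible place, -0.35 at the nearest place and -0.87 to -0.36 without 1 library. No setting read control values of Irgm2 or Sgms1 at their higher possible places, so a turn of sign there was not tested. With the places used, log2 fold changes turned sign only for genes that did not pass. At the nearest place these were Ifit1 (-0.34), Il12a (-0.54), Cd36 (-0.0122), Ngp (0.17), H2-Eb1 (-0.15) and Isg15 (-0.36), and at the most probable place H2-Eb1 (-0.15), Isg15 (-0.36) and Irgm1 (0.23). With quantile normalisation they were Mdm2 (-0.11), Csf3r (-0.14), S100a9 (-0.13), Tnf (-0.14) and Isg15 (-0.22), and with array weights the Isg15 log2 fold change (-0.0182). Without cisplatin replicate 2 and combination replicate 2 they were S100a8 (-0.22), S100a9 (-0.27), Mki67 (0.13), H2-Eb1 (-0.0075), Tnf (-0.0942) and Irf7 (0.0435). Leaving out 1 library gave -0.22 to 0.83 for S100a8, -1.50 to 0.42 for Ngp, -1.11 to 0.11 for Ltf, -1.01 to 0.13 for Mki67, -0.27 to 0.86 for S100a9, -0.27 to 1.60 for Ifit3, -0.62 to 1.30 for Cxcl10, -0.22 to 0.24 for H2-Eb1, -0.0942 to 0.39 for Tnf, -0.72 to 0.78 for Isg15 and -0.93 to 0.68 for Irf7. The cause was not tested. With 3 against 4 libraries, 18.2% of simulated 2-fold changes were recovered.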
